A study of Mus musculus with 19 samples.

Results

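The genes of cholesterol synthesis and uptake described here were chosen by name, with earlier results of these data known. They are 29 genes, namely 20 enzymes, 5 genes of sterol sensing and 4 genes of uptake and transport. Each was read from the probe set that names it alone and has the highest mean log2 signal over all 19 arrays. Of the 29 genes, 28 had such a probe set, and all 28 lay above the filter on low signals and were tested among 12379 genes; Acat2 had no probe set of its own and was not analysed here. The arrays held RNA of ovaries from mice aged 2 months. They comprised 4 arrays labelled Ihh_KO, 4 labelled Dhh_KO, 3 labelled Ihh_Dhh_dKO (lacking both genes, here DKO) and 8 controls labelled Ihh_Dhh_dhet, heterozygous for both genes. The labels state an ovary-specific deletion for all 19 arrays, controls included, and name no Cre driver or cell type for it. They do not say whether the arrays of a group came from separate animals, so p-values measure the spread between arrays, which may be technical. Each mutant was set against controls hybridized with it, controls 5 to 8 for the Ihh KO and Dhh KO and controls 1 to 4 for the DKO. In ovarian RNA, fewer cells of a type and less RNA per cell cannot be told apart.

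Cholesterol is built from acetyl-CoA. HMG-CoA made by Hmgcs1 is reduced to mevalonate, the kinases Mvk and Pmvk and the decarboxylase Mvd turn mevalonate into an activated isoprene unit, and Fdps joins such units into farnesyl diphosphate. Fdft1 makes squalene from it, Sqle and Lss turn squalene into lanosterol, and a chain of enzymes including Cyp51, Tm7sf2, Msmo1, Nsdhl, Ebp, Sc5d and Dhcr7 remodels lanosterol into cholesterol. When sterols run low in the endoplasmic reticulum, Scap escorts the membrane-bound factors encoded by Srebf1 and Srebf2 to the Golgi, where they are cut and released to switch on genes of this pathway, while the Insig proteins hold Scap back when sterols are plentiful. In the ovary, cholesterol is the starting material of steroid hormones, and theca, granulosa and luteal cells obtain it by synthesis and from lipoproteins. Dhh and Ihh encode Hedgehog ligands, which granulosa cells make and to which the neighbouring theca lineage responds.

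The arrays formed 2 hybridization sets, which the labels do not mention: the 3'/5' ratio of the spiked BioC control was 0.987 to 1.06 on the DKO arrays and controls 1 to 4, and 0.685 to 0.781 on the other 12 arrays. Within their sets, control arrays 1 and 5, 2 and 6, 3 and 7, and 4 and 8 deviated together across genes (r of 0.537 to 0.771, against -0.635 to 0.162 for other pairs across sets). The labels do not say whether such pairs share an RNA sample. The array labelled Ihh KO 4 went against its label: its Dhh signal was 2.96, against 527 to 709 on Ihh KO arrays 1 to 3 and 606 to 1371 on the controls, and its Ihh signal was 108, against 12.5 to 43.5 on the other Ihh KO arrays. That Ihh signal lay at the lower end of the Dhh KO arrays (108 to 168) and below the controls (139 to 425.5). Of 2 targets of Hedgehog signalling, Ptch1 read 4292 on it, against 2950.1 to 3582 on Ihh KO arrays 1 to 3, 4704 to 5421 in the Dhh KO and 4236 to 5104 in controls 5 to 8. Hhip read 105, against 9.43 to 49.9 on Ihh KO arrays 1 to 3, 178 to 265 in the Dhh KO and 192 to 281 in controls 5 to 8. The label was kept, and tests of the Ihh KO are given with and without this array. On the DKO arrays Dhh was 3.85 to 14.2 and Ihh 36.3 to 52.7, and on the Dhh KO arrays Dhh was 5.14 to 25.4. Granulosa markers were present on every array, with a summed signal over 9 genes of 37151 to 55424. The 4 theca markers tested, Star, Cyp11a1, Cyp17a1 and Nr5a1, are also on the list of steroid synthesis genes used below. They summed to 3108 to 11092 on the DKO arrays and to 19154 to 26167 on controls 1 to 4.

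RefSeq promoter windows on GRCm38.p6, running from 250 bases before to 50 after a transcription start, were found for 23 of the 29 genes, in 33 windows. Sqle, Fdps, Fdft1, Acat1, Stard4 and Npc1 had no window. The 4 windows shown are those of Hmgcs1, Ebp and Sc5d, the members called with the Ihh KO in at least 1 fit, and of Mvk, the member with the lowest Ihh KO change. Capitals mark the letters searched on both strands: TCACNCCAC (a sterol regulatory element), CCAAT (the box bound by NF-Y) and GGGCGG (the box bound by Sp1), with no overlaps among the matches. The windows lie at chr13:119690101-119690400 on the plus strand for Hmgcs1, chrX:8193463-8193762 on the minus strand for Ebp, chr9:42264251-42264550 on the minus strand for Sc5d and chr5:114444019-114444318 on the plus strand for Mvk.
Hmgcs1: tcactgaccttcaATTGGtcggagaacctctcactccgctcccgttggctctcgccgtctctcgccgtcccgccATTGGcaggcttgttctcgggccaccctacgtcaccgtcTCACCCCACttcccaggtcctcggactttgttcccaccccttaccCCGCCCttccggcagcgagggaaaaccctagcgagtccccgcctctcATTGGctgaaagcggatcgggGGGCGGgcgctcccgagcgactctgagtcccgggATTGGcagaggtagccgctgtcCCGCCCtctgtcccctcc
Ebp: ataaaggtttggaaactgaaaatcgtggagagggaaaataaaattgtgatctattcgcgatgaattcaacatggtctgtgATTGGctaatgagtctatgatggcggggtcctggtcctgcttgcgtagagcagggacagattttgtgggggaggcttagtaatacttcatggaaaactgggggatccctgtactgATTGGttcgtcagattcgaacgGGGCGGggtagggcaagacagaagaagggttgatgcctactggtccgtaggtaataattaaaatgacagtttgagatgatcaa
Sc5d: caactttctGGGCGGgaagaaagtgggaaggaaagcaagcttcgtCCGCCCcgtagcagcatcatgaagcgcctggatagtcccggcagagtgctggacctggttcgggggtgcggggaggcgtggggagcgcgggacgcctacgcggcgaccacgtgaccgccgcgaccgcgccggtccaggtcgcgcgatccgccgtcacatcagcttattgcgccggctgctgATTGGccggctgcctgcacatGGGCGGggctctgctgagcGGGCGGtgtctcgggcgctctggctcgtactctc
Mvk: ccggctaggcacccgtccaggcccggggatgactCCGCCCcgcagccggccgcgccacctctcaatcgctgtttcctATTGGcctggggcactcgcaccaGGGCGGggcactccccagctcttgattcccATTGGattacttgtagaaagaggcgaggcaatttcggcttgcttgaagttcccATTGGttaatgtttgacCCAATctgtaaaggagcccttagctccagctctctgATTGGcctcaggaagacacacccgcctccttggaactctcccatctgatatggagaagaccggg
The sterol regulatory element letters were found in 1 of the 33 windows, that of Hmgcs1, where the match begins 137 bases before the start. Of all 32851 RefSeq windows of this length, 1.24% held them. Only these letters were searched, so a window without them may still hold another form of the element. CCAAT was present in 21 of the 33 windows (63.6%, against 37.4% of all windows) and GGGCGG in 24 (72.7%, against 35.7%). All 4 windows printed hold both boxes, that of Mvk included. The letters TGGGTGGTC, a site bound by Gli factors of the Hedgehog pathway, were in 0 of the 33 windows and in 0.253% of all windows.

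On average over the 4 Ihh KO arrays, most genes of the pathway read higher than in controls 5 to 8, though none passed the test. The rise lay mainly on Ihh KO arrays 1 and 2, where the members' medians were 0.82 and 1.09. Arrays 3 and 4 had medians of 0.13 and -0.10, and controls 5 to 8 had -0.11 to 0.16. Across the 28 genes the median log2 change was 0.51, with 25 of 28 above 0, while the median of all 12379 genes was -0.02 and 46.0% of genes were above 0. The highest values were at Tm7sf2 and Fdps, a sterol reductase and the synthase of farnesyl diphosphate, and the smallest p-values at Hmgcs1 and Ebp. The change is on the scale of log2(signal + 7.02) throughout. By limma with Benjamini-Hochberg adjustment over all genes, 0 members and 2 genes of 12379 (0.0162%, neither of them higher) passed 0.05. At an unadjusted p under 0.05, 11 members were higher and 0 lower, against 5.19% of all genes higher. Because the members were chosen with earlier results known, such counts beside shares of all genes describe the list and do not test it. Once array 4 was left out, the members' median was 0.71 and 26 of 28 changes were above 0. That fit called 48 genes (0.388%; 8 higher, 0.0646%), Ebp among those higher, and 19 members were higher at an unadjusted p under 0.05, against 6.35% of all genes. A further fit, chosen after seeing the data, leaves out array 4 and lets the paired controls share a correlation. It called 61 genes (0.493%; 0.129% higher), among them Ebp, Hmgcs1 and Sc5d.

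**Figure D1:**
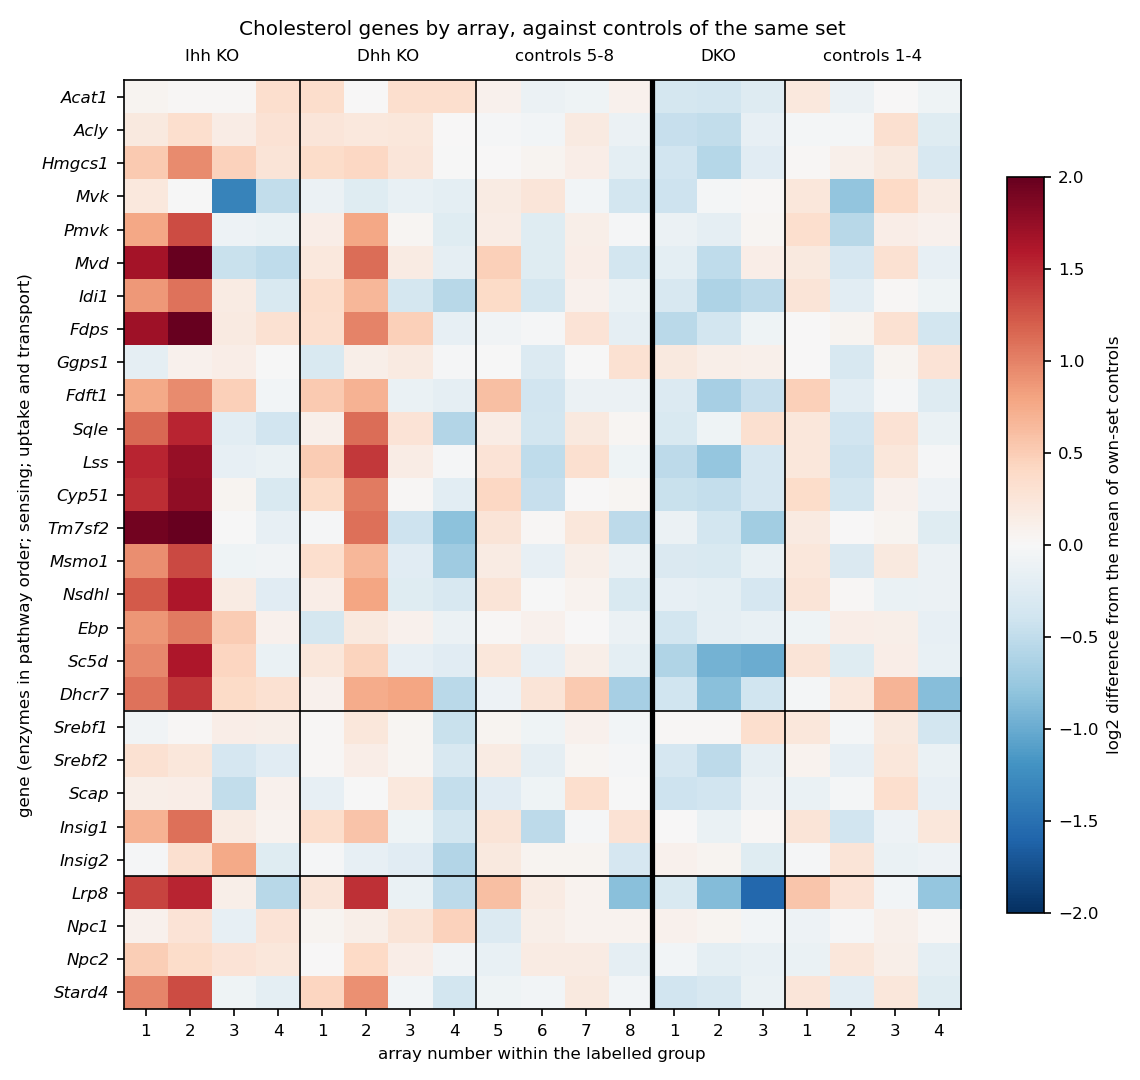
Log2 difference of each of 28 cholesterol genes (rows, by role) on each of 19 arrays (columns, mutants left of the controls of their set) from the mean of the controls of its own set. The colour scale runs from -2 to 2. Ihh KO arrays 1 and 2 and Dhh KO array 2 are the columns with most genes above the controls, and most cells of the 3 DKO columns are below 0.

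At the head of the pathway, Hmgcs1, the HMG-CoA synthase, had signals of 9274, 12466, 8892 and 7707 on Ihh KO arrays 1 to 4 and 6506, 6724, 7123 and 5667 on controls 5 to 8. Every Ihh KO array lay above every control. The log2 change was 0.54 ± 0.14 (SE), with an adjusted p of 0.14 in limma; without Ihh KO 4 it was 0.64 (adjusted p = 0.059), and with paired controls as well the adjusted p was 0.036. Acly, which makes cytosolic acetyl-CoA from citrate, had 7194, 7951, 6977 and 7727 on the Ihh KO arrays and 6194, 6101, 7134 and 5853 on the controls, groups that overlap (log2 change 0.24 ± 0.10, adjusted p = 0.31 in limma, or 0.22 and 0.35 without Ihh KO 4). Acat1, the mitochondrial acetoacetyl-CoA thiolase, differed little, with means of 4963 ± 543 in the Ihh KO and 4596 ± 341 in controls (SD, n = 4 each). Of the enzymes that turn mevalonate into isoprene units, Mvd had 1065, 1585, 243 and 232 in the Ihh KO against 463, 279, 368 and 257 in controls, so 2 of the 4 mutant arrays were far above the controls and the other 2 below all of them. Pmvk had 1559, 2251, 852 and 833 in the Ihh KO and 1016, 766, 992 and 899.6 in controls, with arrays 1 and 2 high and arrays 3 and 4 within the range of the controls. Mvk had 468, 400.3, 156 and 283 in the Ihh KO and 456, 479, 387 and 313 in controls; its log2 change of -0.41 ± 0.28 was the lowest of the 28 genes (adjusted p = 0.54 in limma, or -0.38 and 0.57 without Ihh KO 4). Mvk was the one enzyme of the mevalonate steps that stood above all controls on none of the 4 Ihh KO arrays.

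Idi1, the isomerase that readies isoprene units for joining, had signals of 8059.5, 9279.7, 4912 and 3548 in the Ihh KO against 5768, 3438, 4678 and 4023 in controls. Fdps, which makes farnesyl diphosphate, had 3785, 5136, 1316 and 1427 in the Ihh KO and 1102, 1143, 1405 and 1027 in controls, so that arrays 1 and 2 were each above the highest control by more than the whole range of the controls. The mean was 2916 ± 1867 in the Ihh KO and 1169 ± 164 in controls (SD, n = 4 each), a log2 change of 1.08 ± 0.34 with an adjusted p of 0.19 in limma, or 1.34 and 0.084 without Ihh KO 4. Ggps1 makes geranylgeranyl diphosphate, the branch that leads to prenylated proteins rather than sterols. Its means were 859 ± 82.5 in the Ihh KO and 857 ± 143 in controls, with a log2 change of 0.01 ± 0.14, or 0.02 without Ihh KO 4. The remaining genes of isoprenoid use outside sterols, 8 tested of 10 listed (among them Fnta and Fntb, subunits of protein prenyltransferases), had 0 genes called with the Ihh KO and a median change of -0.05, or 0 and -0.06 without Ihh KO 4.

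**Figure D2:**
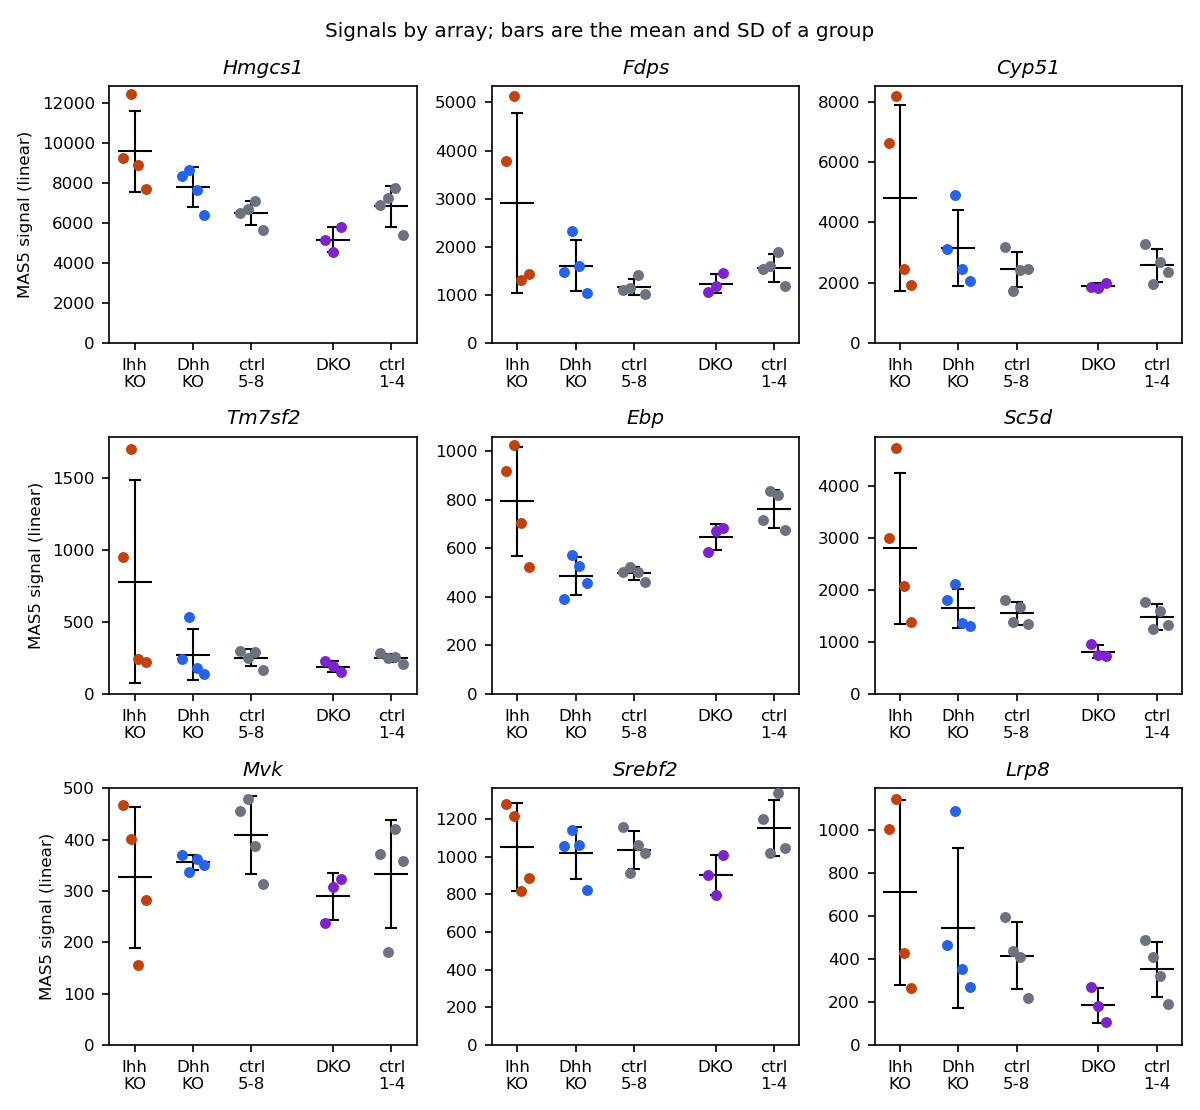
MAS5 signals (linear axes from 0) of 9 of the 28 genes on every array, by group, with the mean and SD of each group. Hmgcs1 is above every control of its set on all 4 Ihh KO arrays, while Fdps, Cyp51 and Tm7sf2 are high on Ihh KO arrays 1 and 2 and near the controls on arrays 3 and 4.

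On the squalene and sterol steps, Fdft1, the squalene synthase, had 3656, 4149.7, 2997 and 2086 in the Ihh KO against 3292, 1658, 2011 and 2001 in controls, with the groups overlapping. Sqle, the squalene epoxidase, had 2971, 3827, 1150.2 and 1022 in the Ihh KO against 1475, 1028, 1520.2 and 1368 in controls. Lss, which closes the sterol rings, had 4845, 5645, 1509 and 1534 in the Ihh KO against 2031, 1186, 2107 and 1598 in controls. In both, Ihh KO arrays 1 and 2 lay above every control and arrays 3 and 4 lay within or below the range of the controls. Cyp51, the lanosterol demethylase, showed the same order, with 6621, 8197, 2466 and 1936 in the Ihh KO and 3174, 1741, 2408 and 2448 in controls (log2 change 0.75 ± 0.36, adjusted p = 0.37 in limma, or 1.10 and 0.14 without Ihh KO 4). Tm7sf2, a sterol reductase, had the largest log2 change of the 28 genes, 1.13 ± 0.51 (adjusted p = 0.33 in limma, or 1.56 and 0.14 without Ihh KO 4), with signals of 951, 1702, 244 and 219 in the Ihh KO and 296, 250.0, 289 and 168 in controls. Its value rests on arrays 1 and 2. Msmo1 and Nsdhl, which act on the methyl groups of the sterol, had means of 4447 ± 2162 and 1216 ± 682 in the Ihh KO and 2833 ± 322 and 662 ± 107 in controls (SD, n = 4 each).

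Ebp, the sterol isomerase, was higher on every Ihh KO array than on any control, with 918, 1026, 704 and 525 in the Ihh KO and 502, 523, 501 and 461 in controls. Its log2 change was 0.62 ± 0.17 with an adjusted p of 0.15 in limma over all 4 arrays. Without Ihh KO 4, Ebp rose by 0.80 (adjusted p = 0.019), and with paired controls as well the adjusted p was 0.016. Controls 1 to 4 read higher for Ebp, at 716, 834, 818 and 673, and against all 8 controls the change was 0.32 (adjusted p = 0.36 in limma), so its size depends on which controls are used. Sc5d, the sterol desaturase, had 2992, 4729, 2070.1 and 1391 in the Ihh KO and 1796, 1375, 1674 and 1351 in controls, with arrays 1 to 3 above every control and array 4 among them. Its log2 change was 0.71 ± 0.26 (adjusted p = 0.24 in limma); without Ihh KO 4 it was 1.00 (adjusted p = 0.062), and the adjusted p was 0.048 once controls were paired. Dhcr7, the last reductase of the pathway, had 6443, 8239, 3968 and 3757 in the Ihh KO and 2841, 3612, 4355 and 1923 in controls, with arrays 1 and 2 above the controls, which themselves ran over 1923 to 4355.

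The 5 genes of sterol sensing had a median log2 change of 0.05 in the Ihh KO, against 0.54 for the 19 enzymes tested and 0.42 for the 4 genes of uptake and transport. Without Ihh KO 4 these medians were 0.07, 0.80 and 0.55. Srebf2, the factor best known for cholesterol genes, had 1281, 1215, 818 and 886 in the Ihh KO and 1155, 913, 1061 and 1019 in controls, with Ihh KO arrays 1 and 2 above all controls and arrays 3 and 4 below all of them. Srebf1, better known for fatty acid genes, had means of 355 ± 23.2 in the Ihh KO and 341 ± 19.5 in controls (SD, n = 4 each). Scap averaged 2582 ± 491 in the Ihh KO and 2637 ± 449 in controls. The log2 changes of these 3 genes lay between -0.04 and 0.05, or between -0.08 and 0.07 without Ihh KO 4. The proteins they encode are controlled largely by transport and cleavage, which arrays do not measure. Insig1, itself a target of the pathway's factors, had 7336, 9621, 5016 and 4712 in the Ihh KO against 5389, 3143, 4407 and 5487 in controls, and was above all controls on arrays 1 and 2. Insig2 was highest on Ihh KO array 3, with 1687, 2136, 2875 and 1434 in the Ihh KO and 1967, 1787, 1781 and 1362 in controls.

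Among the genes of uptake and transport, Lrp8, a receptor for apolipoprotein E and reelin, had 1005, 1142, 425 and 263 in the Ihh KO and 597, 439, 409.6 and 217 in controls, with arrays 1 and 2 above all controls. Stard4, a carrier of cholesterol between membranes, had 1264, 1592, 611 and 560.0 in the Ihh KO and 610.2, 619, 738 and 616 in controls, again high on arrays 1 and 2. Npc2, a soluble protein that hands cholesterol out of lysosomes, was above every control on all 4 Ihh KO arrays, at 9119.8, 8313, 7843 and 7569.5 in the Ihh KO against 5845, 7264, 7257 and 5714 in controls (log2 change 0.34 ± 0.11, adjusted p = 0.21 in limma, or 0.38 and 0.16 without Ihh KO 4). Against all 8 controls its change was 0.10. Its membrane partner Npc1 averaged 766 ± 104 in the Ihh KO and 707 ± 83.6 in controls. In all, Hmgcs1, Ebp and Npc2 were higher without overlap, 3 of 28 genes against 2.29% of all genes. With arrays 1 to 3 alone Sc5d joined them, 4 of 28 against 5.10%.

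The Ihh KO arrays did not behave alike. The median difference of the 28 genes from the mean of controls 5 to 8 was 0.82 on Ihh KO array 1, 1.09 on array 2, 0.13 on array 3 and -0.10 on array 4, against -0.11 to 0.16 on the controls themselves. On array 1, 21 of the 28 genes were above all 4 controls (16.8% of all genes were) and on array 2 it was 23 (18.9%). On array 3 the count was 6 (26.4%) and on array 4 the count was 8 (18.3%). Left out singly, array 2 moved the group's median change most, to 0.25. The 20 members that peaked on array 2 compare with 16.7% of all genes peaking there. Luteal markers (Ptgfr, Akr1c18 and Sfrp4; 3 tested of 5 listed) were also high on some of these arrays, with median differences of 2.30, 2.67, 2.82 and 0.26 on Ihh KO arrays 1 to 4 and 0.51, 2.18, 0.56 and -2.94 on controls 5 to 8. The cholesterol genes had medians of 0.82, 1.09, 0.13 and -0.10 on Ihh KO arrays 1 to 4 and 0.16, -0.09, 0.10 and -0.11 on controls 5 to 8. The summed signal of the 3 luteal markers was 5842 to 26473 in the Ihh KO and 717 to 16754 in controls 5 to 8; its part in the result was not tested. Granulosa markers had medians of -0.23 to 0.08 on the Ihh KO arrays and -0.15 to 0.15 on the controls. The Gapdh 3'/5' ratio, a measure of RNA integrity and labelling, was 1.90 to 2.37 in the Ihh KO and 1.89 to 2.01 in controls 5 to 8; its part was not tested either.

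**Figure D3:**
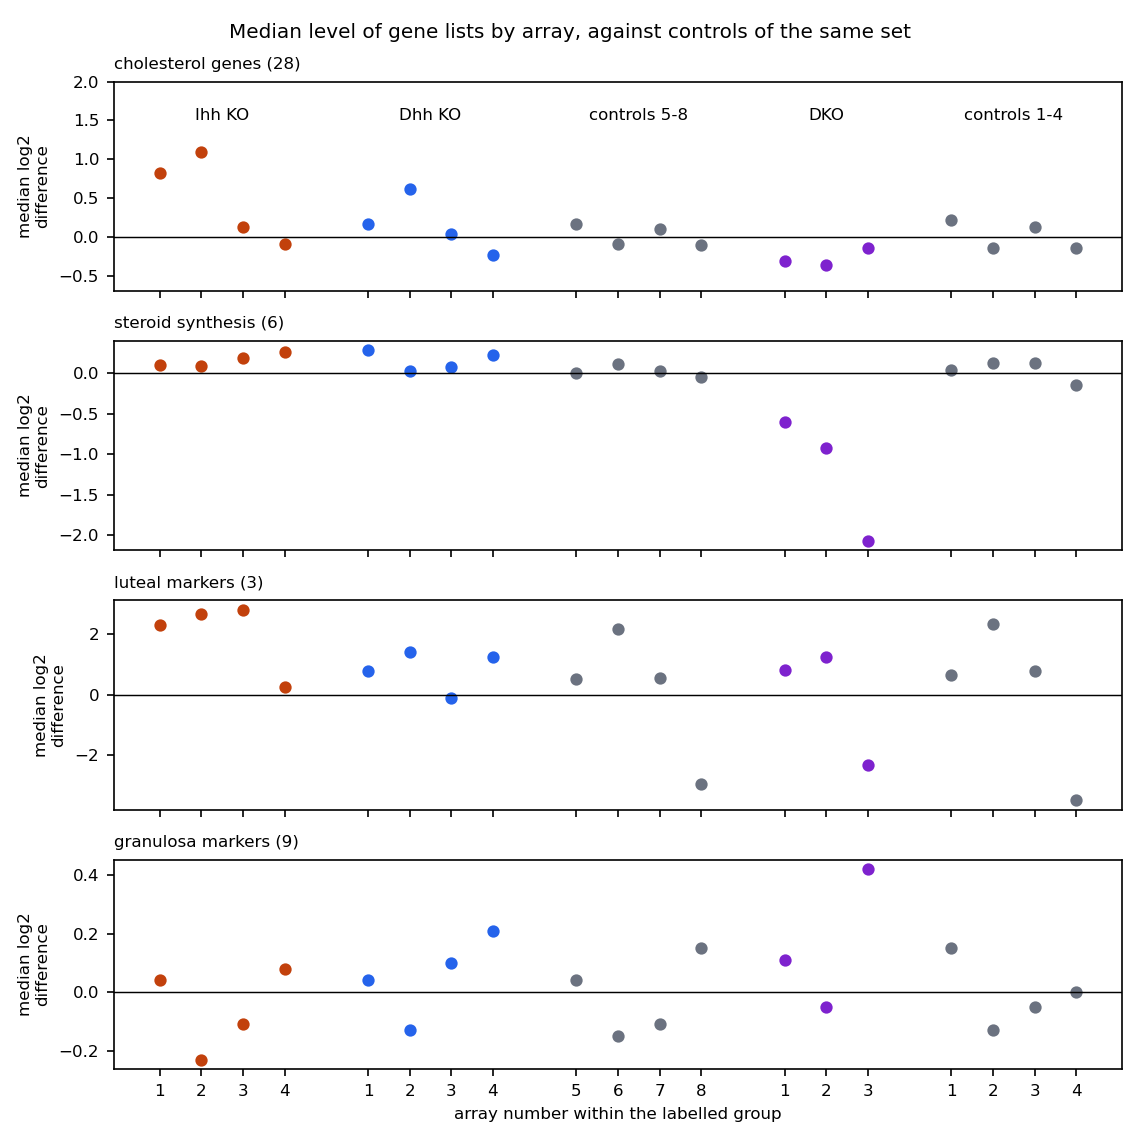
Median log2 difference from the mean of own-set controls on each of 19 arrays, for the 28 cholesterol genes, 6 genes of steroid synthesis, 3 luteal markers and 9 granulosa markers. The cholesterol genes reach 1.09 on Ihh KO array 2 and lie between -0.36 and -0.15 on the DKO arrays, while luteal markers vary over several units within the controls.

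Loss of Dhh gave smaller values. The median log2 change against controls 5 to 8, which the Ihh KO comparison shares, was 0.15, with 20 of 28 genes above 0. No member and no gene at all passed an adjusted p of 0.05 (0.0% in limma), while 1252 genes (10.1%) had an unadjusted p under 0.05. Among members this held for Acat1 alone, at 5845, 4599, 5814 and 5819 in the Dhh KO against 4899, 4263, 4342 and 4879.9 in controls (log2 change 0.26 ± 0.10, adjusted p = 0.39 in limma). By that rule 4.06% of all genes were higher. The other Acat1 probe sets above the filter differed by -0.0 and -0.34 in the Dhh KO, so the rise rests on the probe set used. The values ran from -0.25 for Insig2 to 0.51 for Lss. The single arrays spread widely: the median difference of the 28 genes was 0.17 on Dhh KO array 1, 0.61 on array 2, 0.04 on array 3 and -0.24 on array 4. On array 2, 21 of 28 genes were above all 4 controls (18.1% of all genes), and on array 4, 13 were below all of them (26.5%). Sqle shows the range, with 1426, 2877, 1622 and 884 in the Dhh KO and 1475, 1028, 1520.2 and 1368 in controls. Lss, with the highest change of the 28 genes, had 2383, 4492, 1870.2 and 1657 in the Dhh KO and 2031, 1186, 2107 and 1598 in controls, with array 2 far above and array 1 just above the controls. Without array 2 the median change was -0.04; without array 4 it was 0.23, without control 6 it was 0.09 and without control 8 it was 0.07. The sign of the shift in the Dhh KO therefore rests on array 2. Luteal markers on Dhh KO arrays 1 to 4 had medians of 0.80, 1.41, -0.11 and 1.25. The Gapdh ratio was 2.08 to 2.79 in the Dhh KO and 1.89 to 2.01 in controls 5 to 8; the part of either in these values was not tested.

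With both ligands lost, the values were on the low side. Against controls 1 to 4 the median log2 change in the DKO was -0.30, with 25 of 28 genes below 0, while the median of all genes was 0.02 and 54.1% of genes were above 0. limma called 374 genes (3.02%; 194 higher and 180 lower, or 51.9% higher, which became 90 and 135, or 40%, with each array centred on its median), and 0 members were among them. At an unadjusted p under 0.05, 5 members were lower (Acat1, Acly, Hmgcs1, Sc5d and Srebf2) and 0 higher, against 7.17% of all genes lower. The 3 arrays had medians of -0.31, -0.36 and -0.15 for the 28 genes, against -0.15 to 0.21 on controls 1 to 4. On DKO array 1, 15 of 28 genes were below all 4 controls (17.0% of all genes), on array 2 it was 19 (21.2%) and on array 3 it was 9 (23.4%). Above all 4 controls there were 0 genes on DKO array 1 (19.9% of all genes), 0 on array 2 (26.0%) and 2, Sqle and Srebf1, on array 3 (26.8%).

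**Figure D4:**
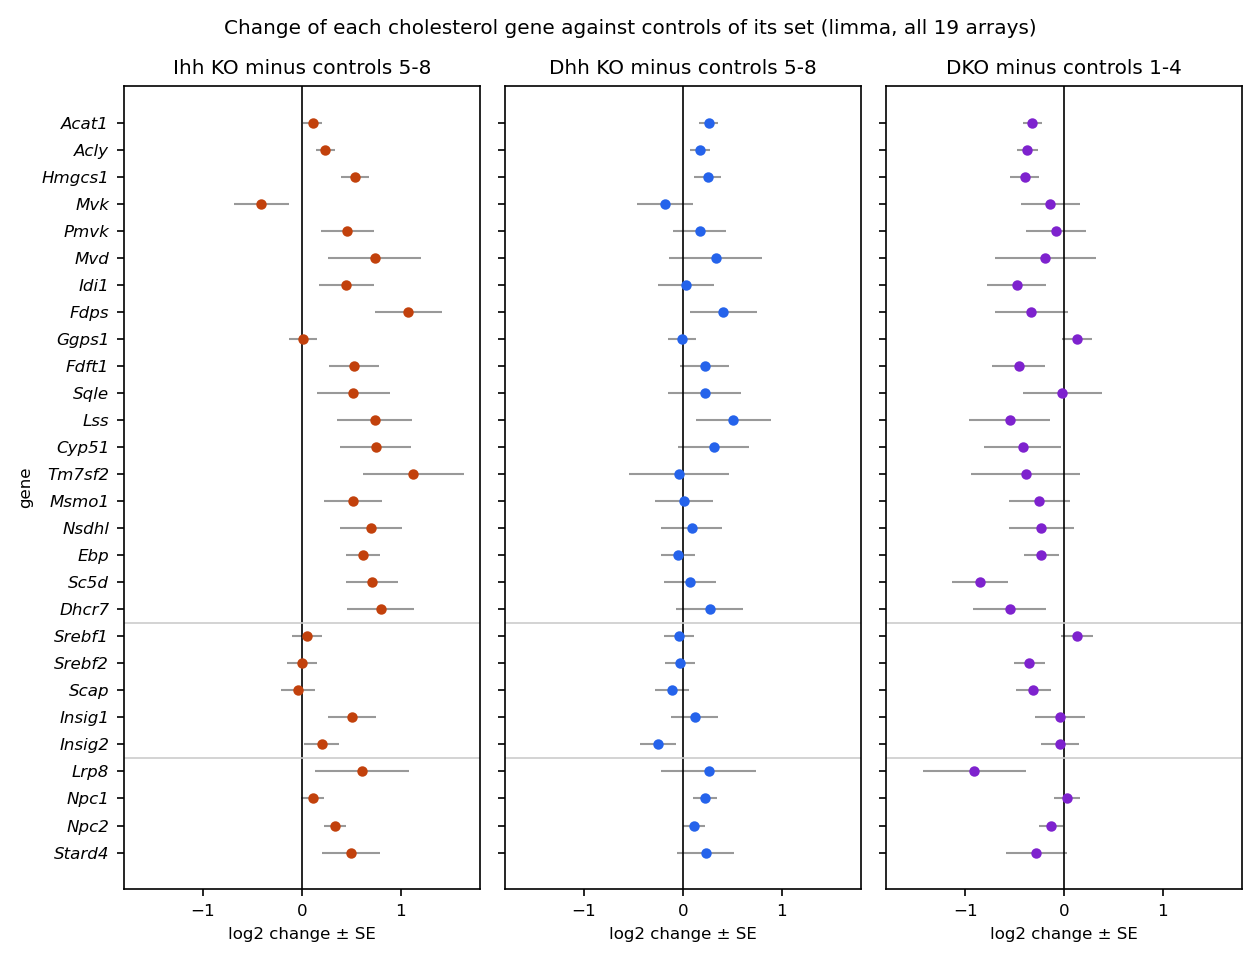
Log2 change ± SE of each of the 28 genes in the Ihh KO and Dhh KO against controls 5 to 8 and in the DKO against controls 1 to 4 (limma, all 19 arrays). Most Ihh KO points lie above 0 and most DKO points below it; the changes range from -0.41 to 1.13 in the Ihh KO and from -0.91 to 0.13 in the DKO.

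Sc5d, the sterol desaturase, was lower on every DKO array than on any control, with 961, 758 and 726 in the DKO against 1758, 1239.8, 1601 and 1315 in controls 1 to 4. Its log2 change was -0.85 ± 0.28 (adjusted p = 0.13 in limma), with an adjusted p of 0.051 without the array labelled Ihh KO 4, which enters through the shared spread, and 0.035 with paired controls as well (1.83% of all genes were called lower in that fit). Acly had 4081, 3998 and 5032 in the DKO and 5451, 5462, 6994 and 4754 in controls, a log2 change of -0.37 ± 0.11 (adjusted p = 0.092 in limma); without control 4 it fell by 0.45 with an adjusted p of 0.032 (1.9% of all genes were called lower). With all 8 controls as 1 group, Sc5d (-0.89, adjusted p = 0.043) and Acly (-0.45, 0.018) were both called, where 2.25% of all genes were called lower. Acat1 was lower on all 3 DKO arrays than on any control, at 3601, 3583 and 3831 in the DKO against 5328, 4219, 4599 and 4302 in controls (log2 change -0.32 ± 0.10, adjusted p = 0.11 in limma). Hmgcs1 had 5153, 4563 and 5799 in the DKO and 6897, 7261, 7768 and 5421 in controls, where DKO array 3 was above control 4 (log2 change -0.40 ± 0.15, adjusted p = 0.18 in limma). The same head-of-pathway enzyme was thus above its controls in the Ihh KO and mostly below them in the DKO.

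Idi1 had 2282, 1862 and 1979 in the DKO against 3397, 2464, 2906 and 2690.4 in controls and Fdft1 2219.8, 1699 and 1955 in the DKO against 3741, 2328, 2653 and 2247 in controls, both without overlap. Srebf2 had 899.8, 794 and 1006 in the DKO and 1200.3, 1016, 1337 and 1046 in controls, also without overlap, while Srebf1 averaged 550.2 ± 69.3 in the DKO and 507 ± 93 in controls (SD, n = 3 and 4). Together with Sc5d, Nsdhl and Acat1 they make 6 of 28 genes lower without overlap, where 6.07% of all genes were. Lrp8 had the largest change, -0.91 ± 0.52 (adjusted p = 0.41 in limma), with 269.9, 179 and 107 in the DKO and 489, 407, 319 and 192 in controls, which overlap because control 4 read low. Other steps differed less: Fdps averaged 1231 ± 198 in the DKO and 1560.2 ± 289 in controls, Sqle 1426 ± 318 in the DKO and 1446 ± 304 in controls, and Ggps1, at 0.13 ± 0.15, was among the 3 genes above 0. By role, the median change was -0.33 for enzymes, -0.04 for sensing and -0.21 for uptake and transport.

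Some lists of cell type markers differed from controls 1 to 4 on DKO arrays, and others did not. The 4 theca markers tested, of 6 listed, had medians of -0.88, -0.98 and -3.10 on DKO arrays 1 to 3, against -0.06 to 0.21 on controls 1 to 4. Adipocyte markers (3 tested of 6 listed) were at 2.57, -1.29 and 3.72 on the DKO arrays. Their summed signal, over 5 genes, was 645 to 9625 in the DKO and 599 to 2774 in controls. Oviduct markers (3 tested of 6 listed) were at 3.21, -0.04 and 4.48, with a summed signal over all 6 of 511 to 8059 in the DKO and 361 to 829 in controls. Granulosa markers were at 0.11, -0.05 and 0.42. Luteal markers were at 0.83, 1.25 and -2.34, against -3.49 to 2.35 on controls 1 to 4. Macrophage markers were at 0.57, 0.79 and 0.18, against -0.32 to 0.49. Cholesterol genes had medians of -0.31, -0.36 and -0.15 on the same arrays, and the part of these cell types in them was not tested.

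The Ihh KO and Dhh KO were also set against each other, both from the same hybridization set. The median log2 difference, Ihh KO minus Dhh KO, was 0.30 for the 28 genes (all genes -0.01), and 25 were above 0. limma called 0 genes (0.0%), while 1440 genes (11.6%) had an unadjusted p under 0.05; 4 members were higher by that rule (Ebp, Insig2, Sc5d and Tm7sf2), against 6.29% of all genes. Without the array labelled Ihh KO 4 there were 26 genes called (0.21%), and Ebp was higher in the Ihh KO by 0.85 (adjusted p = 0.019), with 918, 1026, 704 and 525 in the Ihh KO and 389, 570.4, 525 and 456 in the Dhh KO. Insig2 differed by 0.60 in that fit (adjusted p = 0.13 in limma) and Sc5d by 0.93 (adjusted p = 0.086). Hmgcs1, Ebp and Insig2 on Ihh KO arrays 1 to 3 were above all Dhh KO arrays, 3 of 28 genes against 5.78% of all genes.

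Whether the DKO change differed from the Ihh KO change was tested directly, as the DKO change minus the Ihh KO change, each against its own controls. The median of the 28 genes was -0.78, with 25 below 0, and that of all genes 0.05. limma called 49 genes (0.396%; 30 higher and 19 lower, or 61.2% higher, against 28.9% with arrays centred on their medians and 52.4% after quantile normalization) and 0 members. Hmgcs1 was nearest, at -0.94 ± 0.20 (adjusted p = 0.051), and 13 members were lower at an unadjusted p under 0.05, against 6.96% of all genes. Without the array labelled Ihh KO 4, 34 genes were called (0.275%), with Sc5d at -1.85 (adjusted p = 0.025), Hmgcs1 at -1.03 (0.039) and Ebp at -1.04 (0.04). With paired controls over all arrays the fit called 697 genes (5.63%) and 9 members, all lower (2.37% of all genes were called lower). Pairing controls and leaving out Ihh KO 4 gave 604 genes (4.88%) and 13 members lower, against 2.21%. Those 13 were Acly and Hmgcs1 at the head of the pathway, Idi1, Fdps and Fdft1 on the isoprenoid and squalene steps, Lss, Cyp51, Nsdhl, Ebp, Sc5d and Dhcr7 on the sterol steps, and Npc2 and Lrp8 in uptake and transport. The 15 members outside that call were Acat1, Mvk, Pmvk, Mvd, Ggps1, Sqle, Tm7sf2, Msmo1, Npc1, Stard4 and all 5 genes of sterol sensing. Mvk was at 0.24 (adjusted p = 0.78 in limma). Without Ihh KO 4 and with unpaired controls, Mvd was at -1.34 (adjusted p = 0.29), Pmvk at -0.74 (0.34) and Tm7sf2 at -1.95 (0.17). In that unpaired limma fit Lrp8 (-1.91, adjusted p = 0.17) and Lss (-1.58, 0.16), both among the 13, were not called either. Those adjusted p-values therefore do not set the 13 apart from the other members. A member outside the 13 can have a larger estimate than one of them, such as Hmgcs1 at -1.03. The controls used changed which members were called. With all 8 controls as 1 group the difference is that of the DKO and Ihh KO arrays across the hybridization sets, and 11 members were lower (7.38% of all genes) and 1 higher (13.3%). Hmgcs1 (-0.87, adjusted p = 0.0025 in limma) and Sc5d (-1.64, 0.0025) were called in it, whereas Ebp was at -0.25 (0.45), against -0.85 with controls of each set, and Npc2 was at 0.00 (0.99). The sensing genes Insig2 (-0.65, 0.041) and Srebf1 (0.62, 0.043) were called there. With controls of each set they were at -0.24 (adjusted p = 0.67 in limma) and 0.07 (0.89). Their controls differ by set: Insig2 averaged 1291 on controls 1 to 4 and 1724 on controls 5 to 8, and Srebf1 averaged 507 and 341. Leaving out control 4 alone gave calls for Acly (-0.69, adjusted p = 0.027), Hmgcs1 (-1.04, 0.019) and Sc5d (-1.62, 0.048), where 1.0% of all genes were called lower. Leaving out Dhh KO 4 gave one for Hmgcs1 (-0.94, 0.049), against 0.153% of all genes.

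Neighbouring lipid genes give a setting for these values. Of 20 further genes of cholesterol handling, 14 were tested, 0 were called in any of the 3 mutant groups with all arrays, and their medians were 0.02 in the Ihh KO, -0.06 in the Dhh KO and -0.08 in the DKO. The high-density lipoprotein receptor Scarb1 had 5951, 7358, 3534 and 1927 in the Ihh KO against 2565, 3142, 2759 and 1689 in controls 5 to 8 (log2 change 0.75 ± 0.34, adjusted p = 0.34 in limma, or 1.11 and 0.091 without Ihh KO 4). In the DKO it had 2419.9, 2275 and 1248 against 5123, 5197, 4651 and 3075 in controls 1 to 4, a log2 change of -1.21 ± 0.37 (adjusted p = 0.087, or 0.03 without Ihh KO 4). Hsd17b7, a reductase of sterol synthesis that also acts on estrone, had 9498, 9543, 4243 and 1339.7 in the Ihh KO and 1763, 5254, 1859.9 and 1377 in controls (log2 change 1.11 ± 0.66, adjusted p = 0.46, or 1.72 and 0.19 without Ihh KO 4).

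Of 18 genes of fatty acid synthesis, several of which Srebf1 is known to drive, 0 were called with the Ihh KO (median 0.07) or the Dhh KO (median 0.11). In the DKO 2 were lower: the elongase Elovl5 fell by 0.61 (adjusted p = 0.0054 in limma), at 8086, 6540.1 and 7138 in the DKO against 12431, 11408, 10119.6 and 10356 in controls, and the desaturase Fads2 fell by 1.73 (adjusted p = 0.0067), at 761, 505 and 631 in the DKO against 3497, 1362, 2633 and 1521 in controls. The list's median in the DKO was 0.02, with 9 genes above 0 and 9 below. Acss2, which makes acetyl-CoA from acetate, had a log2 change of 1.10 ± 0.34 in the Ihh KO (adjusted p = 0.18, or 1.29 and 0.1 without Ihh KO 4). Among 8 tested genes of sterol efflux and storage, several of them induced by the sterol-activated LXR receptors, 0 were called with all arrays. The cholesterol exporter Abca1 had a log2 change of -0.68 ± 0.25 in the Ihh KO (adjusted p = 0.25), or -0.95 (adjusted p = 0.07) without Ihh KO 4, with an adjusted p of 0.041 once controls were paired as well, the sign opposite to most cholesterol genes there; in the DKO it was -0.79 ± 0.28 (adjusted p = 0.14), or 0.035 in that other fit.

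Steroid synthesis, a major use of cholesterol in this organ, had 6 tested genes of 9 listed; 4 of them (Star, Cyp11a1, Cyp17a1 and Nr5a1) are also the theca markers tested. In the DKO 3 were lower and all 6 were below 0 (median -1.21): Star, which carries cholesterol into mitochondria, had 2289, 2738 and 666 in the DKO against 4243, 6031, 7260.1 and 5264 in controls and fell by 1.79 (adjusted p = 0.0074 in limma). Cyp11a1, which cuts the side chain of cholesterol, fell by 1.58 (adjusted p = 0.043), and Fdx1, its electron donor, fell by 0.85 (adjusted p = 0.0018). DKO arrays 1 to 3 had medians of -0.60, -0.92 and -2.07 in steroid genes and of -0.31, -0.36 and -0.15 in cholesterol genes. A link between these lists was not tested. In the Ihh KO the 6 steroid genes had medians of 0.10, 0.09, 0.19 and 0.26 on arrays 1 to 4, with 0 called, where the cholesterol genes had 0.82, 1.09, 0.13 and -0.10.

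Several members were covered by more than 1 probe set of their own. The 28 genes had 67 such probe sets, and 31 of the others lay above the filter, in 17 genes. Their change had the sign of the chosen probe set in 28 of 31 cases for the Ihh KO, 22 of 31 for the Dhh KO and 29 of 31 for the DKO. In the Ihh KO the exceptions were probe sets of Acat1 and Srebf2, in the DKO of Ggps1 and Insig2. In the Dhh KO they were probe sets of Acat1, Fdft1, Ggps1, Npc2, Srebf2 and Stard4.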

How the data were processed

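Affymetrix arrays of ovarian RNA gave 1 linear intensity per probe set and array; per the labels' protocols RNA was purified with PicoPure, amplified with WT-Ovation Pico and labelled with Encore Biotin. The deposited values are intensities, named MAS5 in the submitters' processing notes (version not given in the sources used here). The mean after trimming 2% at each end was 500 on every array. Of 45101 probe sets, 34945 named 1 gene, 932 several and 9224 none, from the platform annotation; 34741 matched RefSeq (GRCm38.p6). Values were used as log2(signal + 7.02), the 10th percentile, without further normalization. Probe sets under the 40th percentile of mean log2 (6.26) were left out, which left 12379 genes for limma 3.58.1 under R 4.3.3 (5 group means over 19 arrays, intensity trend, two-sided, Benjamini-Hochberg, threshold 0.05); the script was tested on simulated data. Of the members all 29 are named; of other lists, those called and otherwise at most the 4 with the smallest p. Members, lists and tests were chosen with earlier results of these data known. Median signals were 101 to 160 per array, and the number of arrays limits the precision. Figures used Python 3.11.15 and matplotlib 3.10.9. Same-numbered arrays correlated at 0.0743 to 0.274 (DKO and controls 1 to 4) and -0.298 to 0.156 (Ihh KO and Dhh KO), and the numbers were not treated as pairs. Alternatives covered controls, normalization, pseudocount, filter, probe sets, moderation, weights and each array left out.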

Additional observations from a re-analysis of the deposited data

Results flagged for a closer look

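In groups of 4 arrays, the highest or lowest signal of 6 of 112 gene-and-group sets stood far from the rest of its group, by Dixon's test, and none of the 28 genes' group medians did; chance gives about 1 in 20. Acat1 was 5774 on Ihh KO array 4, the one at odds with its label, against 4642 to 4757 on Ihh KO arrays 1 to 3. Acat1 was 4599 on Dhh KO array 2, against 5814 to 5845 on the other Dhh KO arrays. Acat1 was the one member that passed an unadjusted p of 0.05 in the Dhh KO, a comparison that includes Dhh KO array 2. Ihh KO array 4 enters that comparison only through the shared spread. Scap, the escort of the Srebf proteins, was 1851 on Ihh KO array 3, against 2753 to 2887 on the others. Acly was 6298 on Dhh KO array 4, against 7274 to 7460 on the others. Among controls 5 to 8, Stard4 was 738 on control 7, against 610.2 to 619 on the others, and Npc1 was 583 on control 5, against 738 to 766 on the others. No cause was tested for any of these.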

How the results depend on the processing

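The direction of the members' median held under 13 alternatives for the Ihh KO (0.47 to 0.75) and the Dhh KO (0.10 to 0.16) and 14 for the DKO (-0.40, with the replicate block, to -0.26); counts of calls moved with the setting, and the cause was not tested. For the Ihh KO the genes called numbered 0 with paired controls, only the arrays of the set, no pseudocount or a 60th percentile filter, 1 with median centring, mean probe sets or no trend, 7 without a filter, 66 with array weights (1 member) and 61 with paired controls and without Ihh KO 4 (3 members). For the Dhh KO they were 19 with all 8 controls, 1 with a pseudocount of 29.4 or with paired controls and without Ihh KO 4, and 7 with array weights. For the DKO they were 594 with all 8 controls (2 members), 79 with only the arrays of the set, 225 with median centring, 246 with a 60th percentile filter and 700 with array weights (2 members). Mean probe sets called 392 genes (1 member), and paired controls without Ihh KO 4 called 437 (1 member). The replicate block could be fitted for the DKO and for Ihh KO against Dhh KO. In the DKO it called 363 genes of 12379, with 2 members among them, Hmgcs1 (-0.49, adjusted p = 0.044 in limma) and Lrp8 (-1.22, adjusted p = 0.037). For Ihh KO against Dhh KO the genes called were 4 after quantile normalization, 1 with a pseudocount of 29.4, 2 with array weights and 47 with paired controls and without Ihh KO 4. For the difference of changes they were 2562 with all 8 controls, 697 with paired controls, 21 after quantile normalization, 25 with a 60th percentile filter, 220 with array weights and 604 with paired controls and without Ihh KO 4. Median centring moved the median of all genes to 0.13 in the Ihh KO comparisons and -0.12 in the difference of changes, where members stood at 0.66, 0.44 (against Dhh KO) and -0.95.

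With each array left out in turn, genes called ranged 0 to 58 (highest without control 8) and members 0 to 1 for the Ihh KO, genes 0 to 7 (without control 8) and members 0 to 0 for the Dhh KO, and genes 128 (without DKO 3) to 503 (without control 4) and members 0 to 1 for the DKO, where Sc5d was called without Ihh KO 2 (adjusted p = 0.049 in limma) and Acly without control 4; genes were 0 to 26 and members 0 to 1 for Ihh KO against Dhh KO, and genes 0 (without DKO 3) to 274 (without control 4) and members 0 to 3 for the difference of changes. DKO genes numbered 243 without control 1, 197 without control 3 and 228 without DKO 2. The members' median ranged 0.25 to 0.71 for the Ihh KO, -0.04 to 0.23 for the Dhh KO and -0.36 to -0.22 for the DKO.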
